A study of Mus musculus with 6 samples.

Results

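The major histocompatibility complex (MHC) genes and the genes that supply peptides to MHC molecules were followed in sorted mouse olfactory sensory neurons (OSNs), in the olfactory epithelium left after those neurons were removed, and in brain. The members were all probe sets whose single gene symbol in the platform annotation starts with H2- or is 1 of 16 named genes (B2m, Tap1, Tap2, Tapbp, Psmb8, Psmb9, Psmb10, Psme1, Psme2, Cd74, Ciita, Nlrc5, Erap1, Calr, Canx and Pdia3). This gave 38 genes of 18193 and 76 probe sets of 35041, of which 62 were on chip A and 14 on chip B, the paired Affymetrix mouse expression arrays of the study. Class I held 15 genes and 29 probe sets, class II held 11 genes and 23 probe sets, and antigen processing held 11 genes and 23 probe sets. H2-Ke6, which lies in the MHC and encodes an enzyme and no MHC molecule, was kept apart. Psme2 was on no probe set by itself and has no value here.

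All 3 populations came from OMP-GFP mice, in which the Omp gene, active in mature OSNs, drives green fluorescent protein. The OSN group was GFP-positive cells taken by fluorescence-activated sorting, with RNA from about 500000 cells. The residual epithelium was the same tissue without the mature OSNs, with RNA from about 2500000 cells, and the brain group was brain from which the olfactory bulbs had been removed. Strain, age, sex and the number of animals are not given in the labels. Each population was hybridised once to each chip (1 array per chip), and no value below has a replicate, an error or a test across samples.

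MHC class I molecules carry peptides from inside the cell to its surface, where CD8 T cells read them. The proteasome cuts those peptides, TAP pumps them into the endoplasmic reticulum (ER), and tapasin, calreticulin and Pdia3 load them onto a heavy chain paired with beta-2-microglobulin. MHC class II molecules carry peptides from endosomes and are made mainly by B cells, macrophages and dendritic cells, with the invariant chain Cd74 as their escort. Interferon gamma induces many genes of both routes, among them the immunoproteasome subunits. Neurons are known for low class I levels, and class II is not usually attributed to them.

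Promoters are shown for 3 class I genes, for the shared start region of Tap1 and Psmb9, for 2 class II genes that were far higher in the residual epithelium than in OSNs, and for H2-DMb2, a class II gene that was not. They come from RefSeq on GRCm38.p6, and 27 of the 38 member genes had an entry. Each runs 5′ to 3′ up to the base before the annotated start, over 200 bases, or 225 bases between the starts of Psmb9 and Tap1. Capitals mark matches, on either strand, to AANNGAAA (an interferon regulatory factor, or IRF, core), GGGATTCCC (a kappaB site), TGACG (a cyclic AMP response element core), CTGATTGG (a class II Y box core) and CCAAT. Every CTGATTGG match contains a CCAAT match on the opposite strand. The coordinates are chr17:34000348-34000547 (minus strand) for H2-K1, chr17:35262894-35263093 (plus) for H2-D1, chr2:122147487-122147686 (plus) for B2m, chr17:34187331-34187555 (plus) for Tap1, chr17:34287824-34288023 (minus) for H2-Aa, chr17:34305667-34305866 (plus) for H2-Eb1 and chr17:34145049-34145248 (plus) for H2-DMb2.
H2-K1: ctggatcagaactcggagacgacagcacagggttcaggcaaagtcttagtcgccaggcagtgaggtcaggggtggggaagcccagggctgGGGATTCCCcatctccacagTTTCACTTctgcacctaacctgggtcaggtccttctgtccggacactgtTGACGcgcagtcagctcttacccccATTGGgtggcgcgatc
H2-D1: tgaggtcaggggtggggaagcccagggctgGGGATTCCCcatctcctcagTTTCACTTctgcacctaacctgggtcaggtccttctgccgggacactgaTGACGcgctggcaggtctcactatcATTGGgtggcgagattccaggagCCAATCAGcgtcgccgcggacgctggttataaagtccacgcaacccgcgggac
B2m: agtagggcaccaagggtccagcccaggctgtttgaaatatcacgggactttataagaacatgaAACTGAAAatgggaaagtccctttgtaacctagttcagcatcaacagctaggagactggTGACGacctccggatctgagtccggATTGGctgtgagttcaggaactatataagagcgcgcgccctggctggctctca
Tap1: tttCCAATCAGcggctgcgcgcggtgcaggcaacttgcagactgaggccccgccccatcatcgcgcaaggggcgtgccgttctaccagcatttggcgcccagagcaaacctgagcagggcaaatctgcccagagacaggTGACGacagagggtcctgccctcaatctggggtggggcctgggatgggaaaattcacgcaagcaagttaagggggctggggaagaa
H2-Aa: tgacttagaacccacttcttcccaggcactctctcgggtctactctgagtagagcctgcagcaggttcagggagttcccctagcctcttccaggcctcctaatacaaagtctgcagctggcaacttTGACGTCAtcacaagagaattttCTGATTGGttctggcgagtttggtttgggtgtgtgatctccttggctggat
H2-Eb1: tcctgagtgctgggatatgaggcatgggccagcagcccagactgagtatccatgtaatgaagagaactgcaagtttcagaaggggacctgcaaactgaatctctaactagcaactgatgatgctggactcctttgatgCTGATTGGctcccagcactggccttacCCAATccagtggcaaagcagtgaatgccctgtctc
H2-DMb2: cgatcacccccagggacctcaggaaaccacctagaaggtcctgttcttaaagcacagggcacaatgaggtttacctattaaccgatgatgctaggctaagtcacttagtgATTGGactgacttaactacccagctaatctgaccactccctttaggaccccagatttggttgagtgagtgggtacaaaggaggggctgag

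H2-K1 and H2-D1 shared the kappaB letters followed by an IRF core, and both carried TGACG nearer the start. Among all 32851 promoters, 0.213% held GGGATTCCC in the same 200 bases, and these 2 genes were the only members that did. AANNGAAA was found in 8 of 9 class I genes, 2 of 7 class II genes and 1 of 10 processing genes, beside 17.0% of all promoters. CTGATTGG was found in 4 of 7 class II genes (H2-Aa, H2-Eb1, H2-Eb2 and H2-Oa), 3 of 9 class I genes and 2 of 10 processing genes, beside 3.54% of all promoters. TGACG was found in 5 class I genes, 1 class II gene and 4 processing genes, beside 15.7% of all promoters. CCAAT was found in 7 of 9, 7 of 7 and 5 of 10, beside 29.3%. These matches are letters in a window and not evidence of binding.

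Signals are the deposited probe set intensities on a linear scale, compared within a probe set and within a chip only. Array medians were 194.6 to 239.6 for chip A and 224.7 to 257.7 for chip B. For ratios, signals under the lower quartile of a chip (70.3 on chip A, 79.7 on chip B, here the floor) were raised to it. A ratio was counted where the higher signal reached the chip median (222.0 on chip A, 243.7 on chip B), and called higher or lower from 2-fold. Where the lower signal was at the floor, the fold is a bound, written "at least". Probe sets present on both chips differed between the chips by an SD of 0.25 log2 units for OSN over residual, 0.29 for OSN over brain and 0.34 for residual over brain (99 probe sets), which is the spread between arrays and not between animals. Their mean difference, chip A minus chip B, was 0.23, -0.19 and -0.42 in the same comparisons. The 4 mature OSN marker genes on chip A had a summed signal of 48957 in OSNs, 2726 in the residual epithelium and 2185 in brain. The 6 brain neuron markers on chip A summed to 8174 in OSNs, 1308 in the residual epithelium and 22889.7 in brain. The sustentacular and basal cell markers had their highest sums in the residual epithelium on chip A. The sustentacular sum in OSNs was 7523, 66.2% of the residual sum, and Cyp2g1 (3822 against 2657) and Cyp1a2 (424.4 against 334.7) of that list were higher in OSNs than in the residual epithelium.

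Class I signals were lowest in OSNs and highest in the residual epithelium, with brain between. On chip A, 13 of 27 class I probe sets were counted in OSN over residual, and 11 of them, from 5 genes, were lower in OSNs while 0 were higher. Over all counted probe sets of chip A, 18.8% were lower and 12.5% higher in that comparison. The class I median log2 ratio was -3.04, beside -0.02 over all probe sets. In 7 of the 13 only the residual signal reached the chip median, so the sign of those ratios follows from the filter and counts for nothing by itself. In these bulk arrays fewer cells of a type and less RNA per cell cannot be told apart.

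Beta-2-microglobulin, the light chain that every class I molecule needs to reach the surface, was measured by 2 probe sets. B2m probe set 1452428_a_at had a signal of 944.7 in OSNs, 9281 in the residual epithelium and 3454 in brain. It was 9.82-fold lower in OSNs than in the residual epithelium and 3.66-fold lower than in brain. B2m probe set 1449289_a_at had 663.8, 5290.3 and 1406, which was 7.97-fold lower than residual and 2.12-fold lower than brain. The order OSN, brain, residual held for both, and all 6 signals were above the chip median.

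H2-D1, a classical class I heavy chain, had 9 probe sets, of which 4 were counted. The brightest, 1425545_x_at, had a signal of 223.5 in OSNs, 5829.8 in the residual epithelium and 2618 in brain. That is 26.1-fold lower in OSNs than in the residual epithelium and 11.7-fold lower than in brain. Probe set 1451784_x_at followed with 185.7, 3309.5 and 1611. The OSN signals of both were below or near the chip median while brain was far above it. Probe sets 1451683_x_at (26.1, 701.2 and 224.7) and 1426324_at (18.1, 363.1 and 207.8) were under the floor in OSNs, so their OSN over residual ratios are bounds of at least 9.97-fold and at least 5.17-fold. The other 5 had signals between 10.4 and 101.8 in all 3 arrays and were never counted. H2-D1 alleles differ in sequence between mouse strains, and whether these probe sets match the allele of these mice was not tested.

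H2-K1, the other classical heavy chain in this group, had 4 probe sets, all counted. Probe set 1425336_x_at had 504.2 in OSNs, 4513 in the residual epithelium and 1011 in brain, which was 8.95-fold lower than residual and 2.0-fold lower than brain. Probe sets 1451931_x_at (265.7, 2191 and 922.4) and 1427746_x_at (135.0, 1335 and 320.8) gave the same order, at 8.24-fold and 9.89-fold below residual. Probe set 1450534_x_at did not, with 185.1, 272.0 and 172.4, all within 2-fold. The 2.0-fold ratio to brain of the brightest probe set fell just under 2-fold with a pseudocount (log2 ratio -0.94) or quantile normalization (-0.99), and that of 1427746_x_at fell to -0.97 with quantile normalization. All 4 H2-K1 probe sets carry the _x_at ending, which marks probes that can bind related sequences, so transcripts of other class I genes can add to them.

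Non-classical class I genes were mostly dim. H2-M3, which presents formylated peptides of bacteria and mitochondria, had 97.8 in OSNs, 253.6 in the residual epithelium and 238.5 in brain (1421358_at), with OSN ratios 2.59-fold below residual and 2.44-fold below brain. Both H2-M3 ratios rested on an OSN signal near the floor, and the residual ratio came to -0.79 on the log2 scale with a floor at percentile 40 while the brain ratio came to -0.71, under 2-fold. H2-Q10, a secreted class I protein known from liver, had 5.0, 235.7 and 52.4 (1425137_a_at), at least 3.35-fold below residual. With the higher floor that bound was -0.69 on the log2 scale, also under 2-fold. H2-T3, the thymus leukaemia antigen, did not show the class I order, with 346.6, 270.8 and 378.6 (1452548_x_at) and all 3 ratios within 2-fold. Nlrc5, the transactivator of class I genes, was the only class I member counted on chip B, with 199.7, 324.6 and 240.8 (1437176_at), within 2-fold throughout. H2-M10.1, of a family known from vomeronasal sensory neurons, had 87.8, 68.1 and 14.1 and was not counted.

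Against brain, 9 of 10 counted class I probe sets were lower in OSNs and 0 higher on chip A, beside 22.0% lower and 16.1% higher over all counted probe sets, with a median log2 ratio of -1.48 beside 0.00. In 4 of the 10 (H2-D1 1451683_x_at and 1451784_x_at, H2-K1 1427746_x_at and H2-M3) only brain reached the chip median, so their sign follows from the filter. The lower count was 5 of 8 with quantile normalization. Residual epithelium was higher than brain for 9 of 13 and lower for 0, beside 21.2% higher and 20.7% lower over all counted probe sets, with a median of 1.25 beside 0.05, and 3 of the 13 had a sign set by the filter. Of the 13 counted in OSN over residual, 11 had their lowest signal in OSNs and 12 their highest in the residual epithelium.

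**Figure D1:**
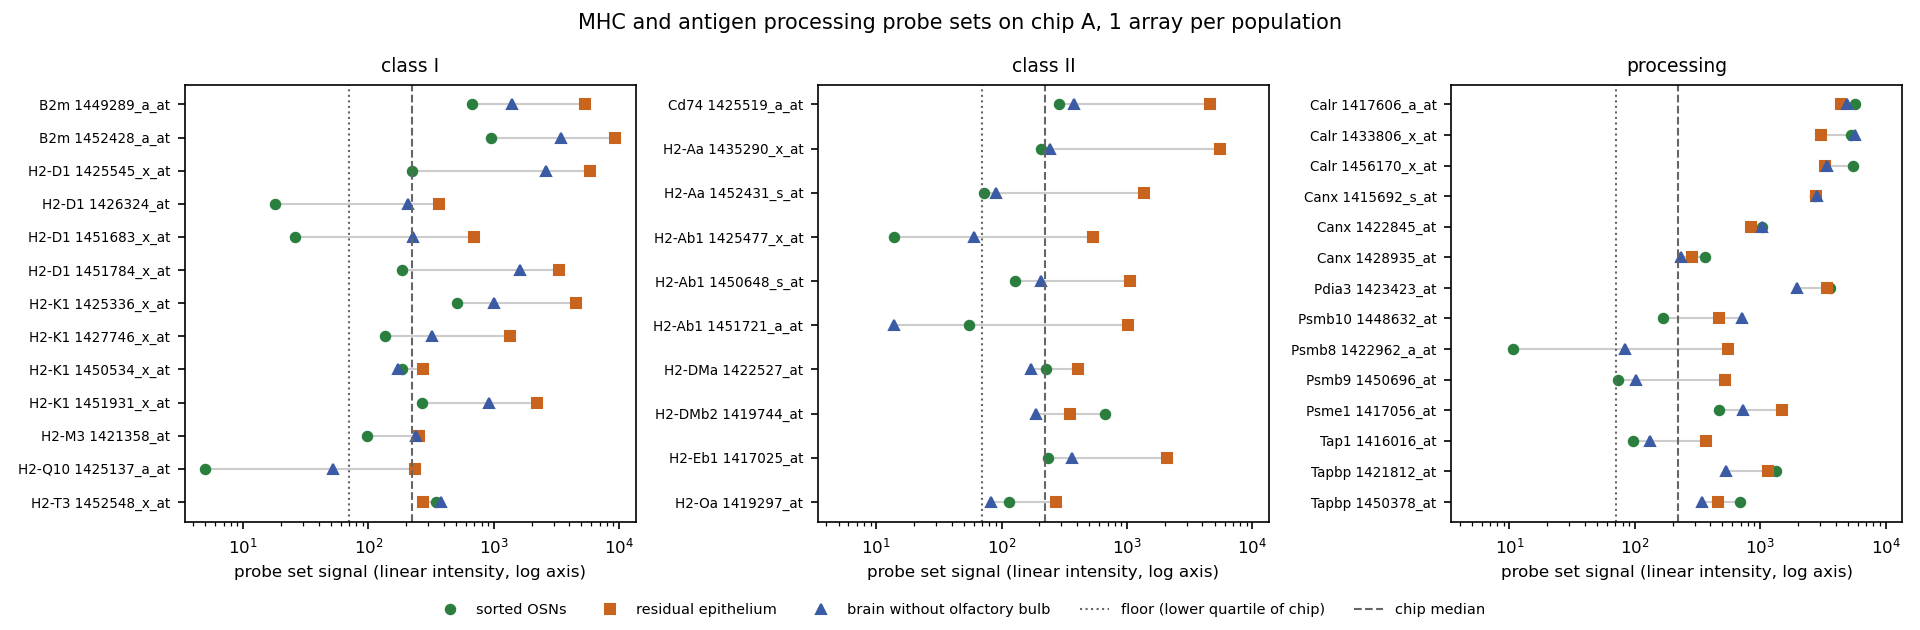
Signals of the counted probe sets on chip A (log axis, linear intensity), a line of points per probe set, with OSNs as circles, residual epithelium as squares and brain as triangles, 1 array each; the dotted line is the floor (70.3) and the dashed line the chip median (222.0). Of 13 class I probe sets 12 (H2-T3 is the exception) and of 10 class II probe sets 9 have residual epithelium at the right, calreticulin, calnexin and Pdia3 have all 3 points close together, and H2-DMb2 has the OSN point at the right; levels of different probe sets are not to be compared.

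Class II signals were high in the residual epithelium and low in both OSNs and brain. On chip A, 8 of 10 counted class II probe sets, from 5 genes, were lower in OSNs than in the residual epithelium and 0 were higher, with a median log2 ratio of -3.10. Over all counted probe sets of chip A, 18.8% were lower and 12.5% higher, with a median of -0.02. On chip B, 3 of 6 class II probe sets were lower and 0 higher, with a median of -1.60. Over all counted probe sets of chip B, 16.5% were lower and 13.0% higher, with a median of -0.09. Only the residual signal reached the chip median in 6 of the 10 and in 2 of the 6, so the sign of those ratios follows from the filter.

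H2-Aa, the alpha chain of the class II molecule I-A, had the widest range. Probe set 1435290_x_at of chip A had 206.2 in OSNs, 5506 in the residual epithelium and 241.1 in brain, 26.7-fold lower in OSNs than in the residual epithelium and 1.17-fold lower than in brain. Probe set 1438858_x_at of chip B had 279.1, 13628 and 213.2, 48.8-fold lower than residual. OSNs and brain therefore lay close to each other and far from residual epithelium on both chips. The weaker probe sets gave the same picture, with 72.7, 1370.3 and 90.3 for 1452431_s_at of chip A and 4.4, 554.1 and 1.5 for 1443783_x_at of chip B.

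The partner chain H2-Ab1 had 3 counted probe sets on chip A. Probe set 1450648_s_at had 126.9 in OSNs, 1052 in the residual epithelium and 205.3 in brain, 8.29-fold lower in OSNs than in the residual epithelium. Probe sets 1451721_a_at (55.0, 1015 and 13.8) and 1425477_x_at (13.8, 538.3 and 60.0) were under the floor in OSNs and in brain, giving at least 14.4-fold and at least 7.66-fold. H2-Eb1, the beta chain of the class II molecule I-E, had 236.3, 2099 and 366.9 (1417025_at), 8.88-fold lower than residual. Its alpha chain H2-Ea, whose expression is known to vary between mouse strains, had 3 probe sets with signals from 3.8 to 50.7, under the floor in every array.

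Cd74, the invariant chain that escorts new class II molecules to endosomes, had a signal of 286.1 in OSNs, 4614 in the residual epithelium and 379.8 in brain (1425519_a_at). It was 16.1-fold lower in OSNs than in the residual epithelium and 1.33-fold lower than in brain, and residual epithelium was 12.1-fold above brain. Ciita, the transactivator that switches class II genes on, had 3 probe sets with signals between 15.0 and 123.6, none of them counted.

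H2-O molecules restrain the loading of class II, and both subunits had lower signals in OSNs than in the residual epithelium. H2-Ob on chip B had 15.0 in OSNs, 686.2 in the residual epithelium and 74.5 in brain (1440837_at), at least 8.61-fold lower in OSNs than in the residual epithelium. H2-Oa had 115.2, 271.7 and 82.8 (1419297_at), 2.36-fold lower than residual, and came to between -0.96 and -0.89 on the log2 scale with a pseudocount, a floor at percentile 40 or quantile normalization. H2-Eb2 on chip B had 504.1, 665.0 and 686.8 (1440907_at), all within 2-fold. H2-DMa, a subunit of the peptide exchanger H2-DM, had 223.9, 407.8 and 171.7 (1422527_at), 1.82-fold lower than residual and 2.38-fold higher in residual than in brain.

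H2-DMb2, a beta subunit of H2-DM, had OSN signals above those of the residual epithelium on all 3 of its probe sets. On chip A its signal was 663.8 in OSNs, 349.6 in the residual epithelium and 186.4 in brain (1419744_at), the only counted class II probe set of that chip with its highest signal in OSNs. OSNs were 1.90-fold above residual epithelium, under the 2-fold call, and 3.56-fold above brain. On chip B probe set 1443686_at had 1087, 798.0 and 182.4 and probe set 1443687_x_at had 1044, 1020.3 and 251.6, with OSNs 5.96-fold and 4.15-fold above brain and 1.36-fold and 1.02-fold above residual epithelium. The chip B pair derive from a common sequence record and are not independent. OSNs were thus above brain on all 3 probe sets and within 2-fold of residual epithelium on all 3. Against brain, only the OSN signal of 1419744_at and 1443686_at reached the chip median, so the sign of those ratios follows from the filter. The counted probe sets of H2-DMa and H2-Eb2 were also within 2-fold of the residual epithelium, but with the lower signal in OSNs. In the 200 promoter bases of H2-DMb2 shown above the CCAAT letters were found and CTGATTGG was not, which says nothing of the factors at the gene.

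Against brain, no counted class II probe set was called lower in OSNs. On chip A, 0 of 5 counted class II probe sets were lower in OSNs and 1, H2-DMb2, was higher, with a median log2 ratio of -0.23. Over all counted probe sets of chip A, 22.0% were lower and 16.1% higher, with a median of 0.00. On chip B, 0 of 4 class II probe sets were lower and 2, both H2-DMb2, were higher, beside 21.7% lower and 17.6% higher over all counted probe sets of chip B. In 3 of the 5 and 2 of the 4 only the higher signal reached the chip median, so their sign follows from the filter. Residual epithelium was above brain for 9 of 10 on chip A (median 2.73, beside 21.2% higher and 20.7% lower over all counted probe sets of chip A). On chip B it was above brain for 5 of 6 (median 2.46, beside 20.1% higher and 20.0% lower over all counted probe sets of chip B), with 0 below on either chip. In 7 of the 10 and 4 of the 6 the sign follows from the filter. Whether the class I and class II ratios to brain differ could not be tested with 1 array per population.

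**Figure D2:**
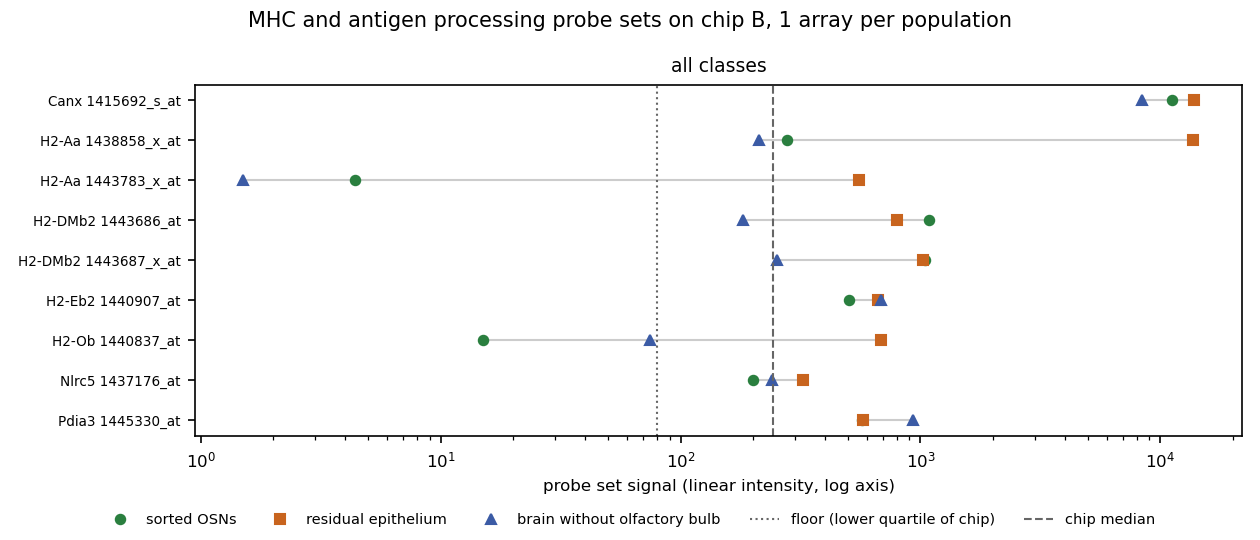
Signals of the 9 counted probe sets on chip B (log axis, linear intensity), with OSNs as circles, residual epithelium as squares and brain as triangles, 1 array each; the dotted line is the floor (79.7) and the dashed line the chip median (243.7). H2-Aa and H2-Ob have residual epithelium far to the right of the others, and both H2-DMb2 probe sets have OSNs and residual epithelium together above brain; the OSN and residual points of Pdia3 coincide.

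The processing genes fell into 2 groups. On chip A, 5 of 14 counted probe sets were lower in OSNs than in the residual epithelium and 0 higher, and the 5 were Psmb8, Psmb9, Psmb10, Psme1 and Tap1, beside 18.8% lower over all counted probe sets. For 4 of the 5 (Psme1 is the exception) only the residual signal reached the chip median, so the sign of those ratios follows from the filter. The 9 probe sets of tapasin, calreticulin, calnexin and Pdia3 were all within 2-fold, beside 8757 of 12754 over all counted probe sets. The median over the 14 was 0.15, and it was -1.47 with 1 probe set per gene, because the chaperones have several probe sets each, so the median says little about this mixed group.

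The immunoproteasome subunits replace the standard catalytic subunits after interferon gamma. Psmb8 had a signal of 10.6 in OSNs, 551.9 in the residual epithelium and 83.1 in brain (1422962_a_at), at least 7.85-fold lower in OSNs than in the residual epithelium. Psmb9 had 73.5, 524.9 and 102.1 (1450696_at), 7.14-fold lower. In both, OSNs and brain were near the floor. Psmb10 had 169.1, 468.1 and 716.9 (1448632_at), 2.77-fold lower in OSNs than in the residual epithelium and 4.24-fold lower than in brain, and was the processing gene called lower than brain. The OSN signal was under the chip median, so the sign of the ratio to brain also follows from the filter. Brain, not residual epithelium, had the highest Psmb10 signal.

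The standard proteasome core, read by 14 genes on a fixed list, gave a different picture. All 21 of its counted probe sets on chip A were within 2-fold between OSNs and residual epithelium, with ratios from -0.42 to 0.49 and a median of -0.11. Over all counted probe sets of chip A, 8757 of 12754 were within 2-fold in that comparison. The lowest were Psma5 and Psma7, both at -0.42, and the highest were Psma4 at 0.49 and Psmb5 at 0.30. Psmb5, Psmb6 and Psmb7 are the catalytic subunits that the immunoproteasome subunits replace and are named for that role. Psmb5 had 2991 in OSNs, 2421 in the residual epithelium and 2132 in brain (1415676_a_at). Psmb6 had 1823, 2309 and 1726 (1448822_at), and Psmb7 had 7212, 7254 and 5497 (1416240_at). None of these 3 reached 2-fold in any comparison on chip A.

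Psme1, a subunit of the PA28 cap that opens the proteasome, had 469.3 in OSNs, 1499.6 in the residual epithelium and 726.3 in brain (1417056_at), 3.20-fold lower than residual and 1.55-fold lower than brain. Tap1, a subunit of the peptide pump, had 97.4, 366.8 and 131.5 (1416016_at), 3.77-fold lower than residual. The other 3 Tap1 probe sets had signals from 14.2 to 55.4 and were never counted. Tap2, its partner, had 106.7, 216.7 and 156.3 (1453913_a_at), just under the chip median and so not counted. Erap1, which trims peptides in the ER, had 159.1, 148.3 and 88.6 on chip A and 153.2, 95.8 and 8.0 on chip B, also not counted.

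Tapasin, which holds empty class I molecules beside TAP, had its highest signals in OSNs. Tapbp probe set 1421812_at had 1330.5 in OSNs, 1155 in the residual epithelium and 536.4 in brain, 1.15-fold above residual and 2.48-fold above brain. Tapbp probe set 1450378_at had 688.0, 456.7 and 341.4, 1.51-fold above residual and 2.02-fold above brain. The 2.02-fold ratio fell to 0.91 on the log2 scale with a pseudocount and to 0.84 with scaling on the shared probe sets, under 2-fold.

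Calreticulin, calnexin and Pdia3 fold many glycoproteins besides class I. The 3 Calr probe sets on chip A had 5685 in OSNs, 4411 in the residual epithelium and 4924 in brain (1417606_a_at), 5308, 3075 and 5692 (1433806_x_at), and 5479, 3316 and 3429 (1456170_x_at). The 3 Canx probe sets of chip A had 2743, 2800.5 and 2843 (1415692_s_at), 1039.6, 845.3 and 1041 (1422845_at), and 361.5, 286.5 and 235.0 (1428935_at). Neither gene kept a single order of the 3 populations. Pdia3 had 3601 in OSNs, 3387 in the residual epithelium and 1975 in brain (1423423_at), and 573.0, 576.4 and 931.7 on chip B (1445330_at). All 7 of chip A were within 2-fold in all 3 comparisons. Canx probe set 1415692_s_at was on both chips, with log2 ratios of OSN over residual of -0.03 on chip A and -0.31 on chip B; its chip B signals were 11183, 13861 and 8367. The other ER folding genes on a fixed list were alike. On chip A, 23 of 25 counted probe sets were within 2-fold between OSNs and residual epithelium (8757 of 12754 over all), 2 higher and 0 lower. Both higher ones were Clgn, the testis-type relative of calnexin, with 1859.6, 89.8 and 11.5 (1430240_a_at) and 2796, 387.6 and 133.5 (1418617_x_at), and chip B gave 27504, 3469 and 688.3 (1457829_at). Of the 3 counted on chip B, Uggt1 was lower in OSNs, with 1643, 4156 and 954.5 (1455839_at), whereas its chip A probe set gave 264.1, 146.9 and 179.5 (1448009_at). The lowest were Pdia6 at -0.87 and P4hb at -0.39.

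Against brain, 2 of 11 counted processing probe sets were higher in OSNs on chip A, both Tapbp, and 1, Psmb10, was lower with a sign set by the filter. The median was 0.21. Over all counted probe sets 16.1% were higher and 22.0% lower, so these counts are near the background. Residual epithelium was higher than brain for 5 of 14 and lower for 0, with a median of 0.35, and the 5 were Psmb8, Psmb9, Psme1, Tap1 and Tapbp 1421812_at. Over all counted probe sets 21.2% were higher, and in 3 of the 14 the sign follows from the filter.

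**Figure D3:**
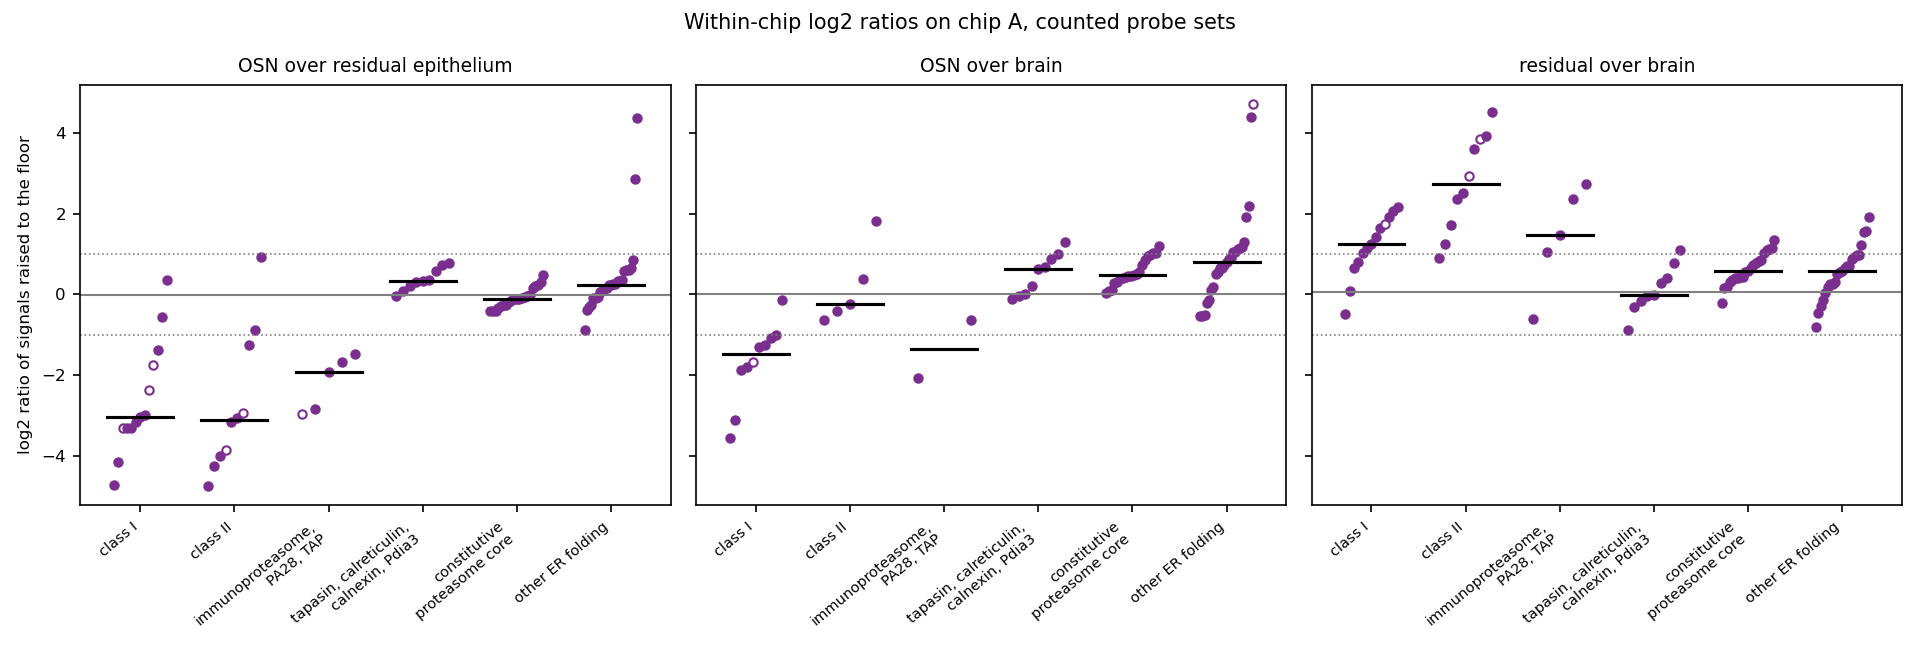
Log2 ratios on chip A of the counted probe sets, with signals raised to the floor, in the 3 comparisons; each point is a probe set, open points are bounds, black bars are medians, dotted lines mark 2-fold and the grey line the median of all counted probe sets. In OSN over residual epithelium, class I, class II and the immunoproteasome, PA28 and TAP group lie mostly under the lower dotted line, while tapasin, the loading chaperones, the standard proteasome core and all other ER folding probe sets except 2 of Clgn lie between the dotted lines.

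Genes that act on the same routes were read from fixed lists on chip A. Among regulators of MHC genes, 3 of 13 counted probe sets were lower in OSNs than in the residual epithelium and 0 higher, near the 18.8% lower over all counted probe sets, and 4 of the 13 had a sign set by the filter. They were Irf8, an interferon regulatory factor of myeloid and B cells, with 89.1 in OSNs, 692.3 in the residual epithelium and 118.3 in brain (1416714_at) and 25.5, 348.4 and 71.9 (1448452_at), and Irf1, which acts on class I promoters, with 329.6, 845.2 and 487.1 (1448436_a_at). The regulatory factor X and NF-Y subunits that bind class II promoters were within 2-fold, the highest ratios of the list being Rfxap at 0.56 and Rela at 0.46. Interferon receptors and signalling genes were within 2-fold in 11 of 11 counted probe sets, beside 8757 of 12754 over all. They ran from Irf9 at -0.99 and Ifngr1 at -0.79 to Ifngr2 and Jak1, both at 0.25. Of 2 counted on chip B, Ifnar2 (-1.95) and Ifnar1 (-1.17) were lower, whereas the chip A probe sets of the same genes gave -0.24 and 0.16.

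Of 13 counted interferon-induced probe sets, 9 were lower in OSNs and 2 higher, beside 18.8% lower and 12.5% higher over all counted probe sets. In 8 of the 13 only the higher signal reached the chip median, so their sign follows from the filter. Psmb8 and Tap1 are members of that list too. The lowest were Ifitm2, with 417.6, 5392 and 432.2 (1417460_at), and Ifitm3, with 295.0, 3714 and 782.8 (1423754_at), membrane proteins that restrict viruses. The 2 higher ones were Ifit1, with 797.8, 149.2 and 150.8 (1450783_at), and Ifit2, with 637.5, 116.7 and 28.6 (1418293_at), which bind viral RNA or limit its translation. Ifit1 and Ifit2 thus had their highest signals in OSNs, unlike most of the MHC genes. In both only the OSN signal reached the chip median, so the filter fixed their sign. Ifit3 of the same list had 93.7, 188.8 and 264.6 (1449025_at), not counted against residual and 2.82-fold lower in OSNs than in brain.

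Proteases and related molecules of endosomal antigen handling went both ways, with 5 of 14 counted probe sets lower in OSNs than in the residual epithelium and 5 higher. Over all counted probe sets 18.8% were lower and 12.5% higher, and 6 of the 14 had a sign set by the filter. The lower side held Ctss, which cuts the invariant chain, with 275.2 in OSNs, 3869 in the residual epithelium and 1434 in brain (1448591_at), and Ifi30, which reduces disulphides in endosomes, with 203.6, 2246 and 141.5 (1422476_at). The higher side was led by Hfe, an MHC-like protein of iron regulation that pairs with beta-2-microglobulin, with 1516, 333.1 and 269.7 (1422645_at) and 393.3, 57.2 and 137.2 (1450702_at). Hfe was 4.55-fold above residual epithelium on the first of these, while B2m signals were lowest in OSNs.

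Levels of immune cell markers are given beside these ratios as sums over the probe set of each gene with the highest mean log2 signal. All 22 counted macrophage and microglia probe sets on chip A were lower in OSNs than in the residual epithelium, but in 17 of them only the residual signal reached the chip median, so the filter fixed their direction, and the 17 genes summed to 2603 in OSNs, 36393 in the residual epithelium and 9417 in brain. The OSN sum was 7.15% and the brain sum 25.9% of the residual sum. The lowest ratios were those of Ptprc, the leukocyte antigen CD45, at least 55.9-fold lower in OSNs, and of Fcer1g, at least 28.4-fold lower, and the highest log2 ratios were Laptm5 at -1.43 and Adgre1 at -1.44. On chip B the counted Laptm5 probe sets did not agree, with log2 ratios of OSN over residual of 0.56 (1447742_at) and -1.21 (1459841_x_at). In OSNs on chip A Ptprc, Itgam, Fcer1g, C1qa and Mpeg1 were at or under the floor, and no gene of the list was in the residual epithelium or brain. B cell markers summed to 1006, 8703 and 897.5, so that OSNs had 11.6% and brain 10.3% of residual, with Cd79b and the chip A probe set of Pax5 at or under the floor in OSNs. Both were also at or under it in brain, as was Pax5 in the residual epithelium. On chip B a Pax5 probe set was over the floor in all 3 populations, with a log2 ratio of OSN over residual of -0.44 (1454401_at). The B cell log2 ratios ran from -4.95 for an Ighm probe set, with Cd79b at least 21.6-fold lower, to 0.45 and 0.85 for 2 other Ighm probe sets, so the probe sets of that immunoglobulin gene did not agree. Neutrophil markers summed to 1581, 73659 and 1006, with Camp, Elane and Lcn2 at or under the floor in OSNs and in brain. The neutrophil log2 ratios of OSN over residual were lowest for Camp (-6.96, a bound) and S100a8 (-6.49) and highest for Ltf (-3.90) and Mpo (-3.61). The filter fixed the sign for 8 of 10 counted B cell and 5 of 8 counted neutrophil probe sets of chip A.

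The dendritic cell list, of which 5 of 16 probe sets were counted, summed to 1512 in OSNs, 1599 in the residual epithelium and 1353 in brain. Ccr7 and Cd40 were at or under the floor in OSNs, Cd40 in the residual epithelium, and Ccr7, Cd40 and Cd80 in brain. In that list Cd83 (-1.98) and Itgax (-1.69) were lower in OSNs, and Zbtb46 was the highest, at 0.95 and 1.81. The T and NK cell list summed to 589.5, 1109.9 and 497.3, with 2 of 13 probe sets counted (Nkg7 at -1.77 and Gzma at -1.30). Cd247, Cd3d, Cd3g and Cd4 were at or under the floor in OSNs, and Cd247, Cd3e, Cd4 and Cd8a in the residual epithelium. In brain these were Cd247, Cd3d, Cd3g, Cd4 and Nkg7. Endothelial markers summed to 1136, 1281 and 2983, with Cldn5 and Tie1 at or under the floor in OSNs and 2 probe sets counted (Egfl7 at -0.49 and Kdr at 0.35). Tie1 was also at or under the floor in the residual epithelium and brain. The filter fixed the sign for 4 of 5 counted dendritic cell, 2 of 2 T and NK cell and 2 of 2 endothelial probe sets. Beside these sums, the median OSN signal as a share of the residual signal was 10.2% over the 13 counted class I probe sets of chip A (from 2.12% to 128%), 8.73% over the 10 of class II (from 2.56% to 189.9%) and 111% over the 14 of processing (from 1.92% to 173%). Unlike the ratios, these shares use signals not raised to the floor, and each minimum rests on an OSN signal under it. The part of these cell types in the MHC ratios was not tested.

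**Figure D4:**
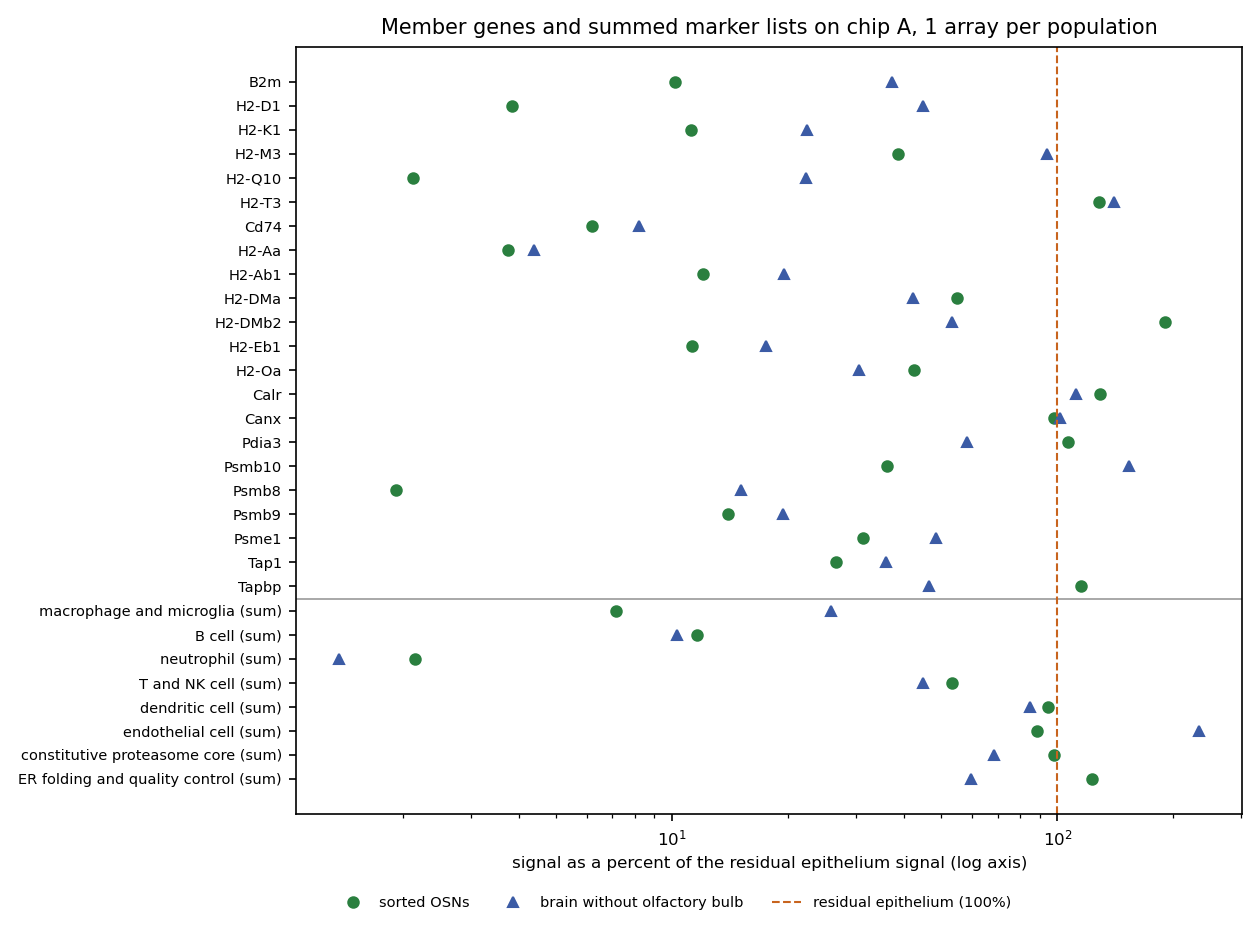
Signals in OSNs (circles) and brain (triangles) as a percent of the residual epithelium signal on chip A (log axis, dashed line at 100%), for the brightest counted probe set of each member gene and, under the grey line, for sums over marker and pathway lists, 1 array each. B2m, H2-D1, H2-K1, Cd74, H2-Aa, H2-Ab1 and H2-Eb1 have OSN points between 3.75% and 12.1%. H2-Q10 is at 2.12%, and H2-M3, H2-Oa, H2-DMa, H2-T3 and H2-DMb2 lie from 38.6% to 189.9%. Signals are not raised to the floor here, and those of H2-Q10 and Psmb8 in OSNs are under it. The OSN sums are 2.15% for neutrophil, 7.15% for macrophage and microglia and 11.6% for B cell markers. Those of T and NK cell, endothelial and dendritic cell markers are 53.1%, 88.7% and 94.6%, and the constitutive proteasome sum is at 97.9%.

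Of the 76 member probe sets, 47 were counted in at least 1 comparison, 38 on chip A and 9 on chip B, and they came from 26 genes. The other 29 had signals from 1.3 to 219.0 and carry no ratio. The 12 genes never counted were Ciita, Erap1, H2-Bl, H2-D4, H2-Ea, H2-M10.1, H2-M9, H2-Q2, H2-Q5, H2-T18, H2-T24 and Tap2. H2-Ke6 had 343.0 in OSNs, 390.7 in the residual epithelium and 226.2 in brain (1454987_a_at), within 2-fold throughout. Different probe sets of a member gene varied more than the chips did, with an SD of 0.88 log2 units in OSN over residual over 10 genes, beside 0.59 over all 4608 genes with several counted probe sets. In the other comparisons members did not exceed all genes, with 0.55 beside 0.75 for OSN over brain and 0.74 beside 0.74 for residual over brain.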

How the data were processed

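Probe set signals of 6 arrays were used, 1 per population on each of 2 chips. The deposited values are 1-colour intensities, not logged. MAS5 made them, per the submitters' processing notes, which name it without a version for 5 of the 6 arrays, the exception being the chip A brain array. Trimmed means lay between 499.6 and 499.9 on all 6 arrays, so the authors' arrays share a scale. Such scaling fixes the mean of an array, so amounts per cell cannot be compared. Whether both chips received the same RNA extract is not stated in the labels.

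Gene names came from the platform annotation. Of 45137 probe sets, 35041 had 1 symbol, 936 had several and 9160 had none, and only those with 1 symbol name a gene here. The 28 member probe sets ending in _x_at, _s_at or _f_at can bind related transcripts. The members and all gene lists were chosen with earlier results of these data known. Signals were raised to percentile 25 of the 3 arrays of a chip, log2 ratios were taken within a chip, and a ratio was counted where the higher signal reached percentile 50. Every counted member probe set is given with its signals; of the pathway, immune and endothelial lists, the 2 highest and 2 lowest chip A ratios of OSN over residual epithelium, and markers at the floor. Psmb5, Psmb6 and Psmb7 were added by role, and the lists that check the labels are given as sums. The number of arrays limits the precision, and no test or p-value is given. The files name no genome build, so coordinates are given only for RefSeq promoters on GRCm38.p6. The computation was tested on simulated data. The tools were pandas 2.3.3 and numpy 2.4.6 in Python 3.11.15, with matplotlib 3.10.9 for figures.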

Additional observations from a re-analysis of the deposited data

How the results depend on the processing

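The class medians and counts were recomputed with quantile normalization, median-centred ratios, scaling on the probe sets of both chips, a lower (percentile 10) or higher (percentile 40) floor, a pseudocount of 50 instead, no filter, a stricter filter (percentile 75), without _x_at, _s_at and _f_at probe sets, and with 1 probe set per gene; adding several-symbol probe sets and calling from 3-fold were chosen after seeing the data. No class median with a 2-fold size and no called member ratio changed sign, though 2 medians came to 0.00 with no filter. A changed floor or a pseudocount cannot reverse the sign of a single ratio, so for those settings that outcome was fixed in advance. Of the 70 called member ratios, 58 stayed past 2-fold under all 6 settings tried on them. Scaling on the shared probe sets lowered the chip A medians of all probe sets to -0.16 for OSN over residual and -0.19 for OSN over brain, and moved those of chip B to 0.13, -0.26 and -0.37, with 55.6%, 35.4% and 31.0% of calls on the higher side beside 44.0%, 44.8% and 50.1%. Probe sets near the floor are limited by their signal over background.

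Medians are log2 ratios. Class I OSN over residual gave -3.30 with the lower floor and with the stricter filter, -0.56 with no filter, -2.37 without shared-suffix probe sets, -2.45 with 1 per gene and -2.70 with several-symbol probe sets, and its lower count was 5 without shared-suffix probe sets and with 1 per gene. Class I OSN over brain gave -1.11 with the higher floor, 0.00 with no filter and -1.83 with the stricter filter, and its lower count was 5 with quantile normalization, 3 without shared-suffix probe sets, 4 with 1 per gene and 5 from 3-fold. Class I residual over brain gave 0.10 with no filter, and its higher count was 3, 4, 14 and 5 without shared-suffix probe sets, with 1 per gene, with several-symbol probe sets and from 3-fold. Class II OSN over residual on chip A gave -3.58 and -2.82 with the lower and higher floors, -1.24 with no filter, -3.85 with the stricter filter and -2.19 without shared-suffix probe sets, and its lower count was 4 without them and 5 with 1 per gene. Class II OSN over brain on chip A gave 1.83 with the stricter filter and 0.08 with several-symbol probe sets, whose higher count was 2. Class II residual over brain on chip A gave 1.71 with no filter, 3.73 with the stricter filter, 2.12 without shared-suffix probe sets, where the higher count was 5, and 2.36 with 1 per gene.

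On chip B, class II OSN over residual gave -2.45 and -1.06 with the lower and higher floors, -1.92 with the pseudocount, -0.20 with no filter, -0.40 with the stricter filter and -0.40 without shared-suffix probe sets, with a lower count of 1. Class II OSN over brain gave 0.00 with no filter, 2.05 with the stricter filter, 0.20 with shared-probe scaling and 0.39 with 1 per gene; the higher count was 1 without shared-suffix probe sets and with 1 per gene, and the lower count was 1 with no filter and with shared-probe scaling. Class II residual over brain gave 2.02 with the higher floor, 2.07 with no filter and 1.77 with shared-probe scaling; the higher count was 2 without shared-suffix probe sets and 3 with 1 per gene, and the lower count was 1 with no filter and with shared-probe scaling. Processing OSN over residual gave -1.47 with 1 per gene and a lower count of 1 with the stricter filter. Processing OSN over brain had a higher count of 1 with the pseudocount, shared-probe scaling and 1 per gene, and 0 from 3-fold. Processing residual over brain gave -0.05 with the stricter filter, 0.78 without shared-suffix probe sets and 1.05 with 1 per gene, and its higher count was 2 with the stricter filter and from 3-fold. Counts without shared-suffix probe sets, with 1 per gene or with the stricter filter cover fewer probe sets, and those with no filter cover probe sets at the floor; otherwise the cause was not tested. No paired analysis was possible because each population had 1 array per chip and the labels give no replicate numbers.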

Other observations

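A further 16 probe sets list several gene symbols of which at least 1 is a member, and no gene is named from them. Of the 15 on chip A, 11 hold class I symbols. Of these, 6 were counted in OSN over residual epithelium and 5 were lower in OSNs, beside 18.8% lower over all counted probe sets. In all 6 only the residual signal reached the chip median, so the sign follows from the filter. Probe set 1449556_at had a signal of 194.1 in OSNs, 1382 in the residual epithelium and 269.2 in brain, 1424948_x_at had 72.5, 470.1 and 233.6, and 1431008_at had 209.1, 646.5 and 291.9. The remaining probe set, 1451593_at, had 191.5, 226.1 and 162.4. A class II probe set, 1449580_s_at, had 435.0, 289.1 and 28.3, with OSNs above brain by at least 2.63 on the log2 scale and within 2-fold of residual epithelium, the order that H2-DMb2 showed. Against brain only its OSN signal reached the chip median, so that sign also follows from the filter.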
